A study of Mus musculus with 6 samples.

Results

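The levels of 10 marker genes of intestinal crypt stem cells were followed in mouse gut epithelium by RNA-seq, over 6 libraries: Lgr5, Olfm4, Ascl2, Smoc2, Axin2, Sp5, Slc12a2, Cd44, Mecom and Tnfrsf19. They were chosen by name as known markers, with earlier results of these data known. All 10 had a row among the 23845 genes of the count table and passed the filter on low counts. The libraries fall into 3 groups of 2. EYFP cells were sorted for a Neurog3 reporter from Neurog3+/+EYFP mice, which carry 2 Neurog3 alleles on a mixed C57BL6 and CD1 background. EGFP cells were sorted for a Neurog3 reporter from Neurog3+/-EGFP mice, which carry 1 allele on C57BL6. WT libraries are wild-type C57BL6 intestinal epithelium, whose titles point to duodenum and whose labels do not describe a sort for a reporter. The sources used here do not state age, pooling of animals or the gut segment of the sorted cells. They also leave unsaid whether replicates came from separate animals, so p-values measure the spread between these libraries.

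Crypt stem cells sit at the base of the intestinal crypt between Paneth cells, divide steadily and give rise to every lineage of the epithelium, including the hormone-secreting enteroendocrine cells that Neurog3 specifies. Their state depends on Wnt signals that R-spondin amplifies through Lgr5 and its relative Lgr4. Axin2, Sp5, Ascl2, Cd44 and Tnfrsf19 are known targets of this signal, which reaches DNA through TCF/LEF factors. Olfm4, Smoc2, Slc12a2 and Mecom are used as markers of the crypt base without being core parts of the pathway. The series asks how Neurog3 dosage affects enteroendocrine progenitors.

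Promoter sequence is shown for 4 markers with unlike behaviour: Sp5, low in both sorted groups; Mecom, lowest in EYFP cells; Axin2, similar in all groups; and Cd44, highest in EYFP cells. Each line gives the 250 bases before a transcript start from RefSeq (GRCm38.p6), 5′ to 3′ on the strand of the gene. Capitals mark a TCF/LEF-type motif, searched on both strands as CTTTG followed by A or T and then again by A or T; the marked matches do not overlap.
Sp5, chr2:70474673-70474922, plus strand: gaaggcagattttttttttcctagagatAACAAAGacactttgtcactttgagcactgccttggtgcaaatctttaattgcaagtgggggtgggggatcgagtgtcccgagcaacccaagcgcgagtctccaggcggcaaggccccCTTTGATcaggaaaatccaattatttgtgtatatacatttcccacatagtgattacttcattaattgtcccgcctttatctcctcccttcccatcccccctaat
Mecom, chr3:30509760-30510009, minus strand: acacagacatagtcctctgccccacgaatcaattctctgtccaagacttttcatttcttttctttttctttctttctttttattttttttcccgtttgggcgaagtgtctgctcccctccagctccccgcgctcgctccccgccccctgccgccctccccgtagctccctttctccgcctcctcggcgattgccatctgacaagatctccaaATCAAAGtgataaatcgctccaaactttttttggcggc
Axin2, chr11:108920099-108920348, plus strand: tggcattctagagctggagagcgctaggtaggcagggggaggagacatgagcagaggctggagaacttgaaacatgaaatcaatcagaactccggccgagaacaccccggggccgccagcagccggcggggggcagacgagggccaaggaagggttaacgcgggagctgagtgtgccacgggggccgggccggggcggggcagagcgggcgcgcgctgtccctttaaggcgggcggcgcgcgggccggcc
Cd44, chr2:102901666-102901915, minus strand: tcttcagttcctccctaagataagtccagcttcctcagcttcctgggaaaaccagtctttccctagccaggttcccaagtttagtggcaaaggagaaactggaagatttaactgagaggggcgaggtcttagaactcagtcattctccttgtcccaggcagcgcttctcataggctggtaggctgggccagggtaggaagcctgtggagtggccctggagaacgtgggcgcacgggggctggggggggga
The Sp5 window held 2 matches, which begin 222 and 104 bases before the start, and the Mecom window held 1, which begins 38 bases before it. No match stood in the windows of Axin2 and Cd44. The Axin2 window precedes the transcript start of the RefSeq table, which lies inside the gene span chr11:108917828-108950783 and not at its first base. Of the 9 windows of the 7 markers in the table, 3 held a match, 1 of them of Sp5, 1 of the 2 of Mecom and 1 of the 2 of Tnfrsf19, against 14.8% of all 32851 windows of this length. The windows of Ascl2 and Olfm4, both called lower in EYFP cells over WT, held no match. Whether a match goes with the behaviour of a marker was not tested. A match is a description of the letters and not a measured site, and its absence says only that these letters are not in the window. Lgr5, Smoc2 and Slc12a2 had no entry in the promoter table.

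Total estimated counts ranged from 7938358 to 20589683 per library, and 13935 genes were tested. Levels are in CPM, the count of a gene scaled to the same TMM-adjusted total in every library, and each library is given. Log2 fold changes carry their standard error (SE). Adjusted p-values are from edgeR's quasi-likelihood test over all genes tested. Neurog3 stood at 563 and 348 CPM in EYFP cells, 120 and 179 CPM in EGFP cells, and 5.996 and 6.39 CPM in WT. The 7 epithelial markers were expressed in every library. Epcam, an adhesion protein of epithelial cells, stood at 575 and 658 CPM in EYFP cells, 1117 and 1109.7 CPM in EGFP cells, and 1608 and 1612 CPM in WT. Strain, reporter and sex-linked transcripts differ together between the sorted groups: Xist stood at 0.634 and 2.36 CPM in EYFP cells and at 966 and 969 CPM in EGFP cells, while WT replicate 1 had 1.17 CPM and WT replicate 2 had 726 CPM. These cannot be told apart from the number of Neurog3 alleles.

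The markers did not move as a block. EYFP cells held less Lgr5, Olfm4, Slc12a2 and Mecom than both EGFP cells and WT, while none of these 4 passed the test in EGFP cells over WT. Cd44 rose in all 3 comparisons and was highest in EYFP cells. Sp5 was low in both sorted groups, Smoc2 was lower in EYFP than in EGFP cells, and Axin2 passed in no comparison. The plot of CPM in each library shows these shapes.

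**Figure D1:**
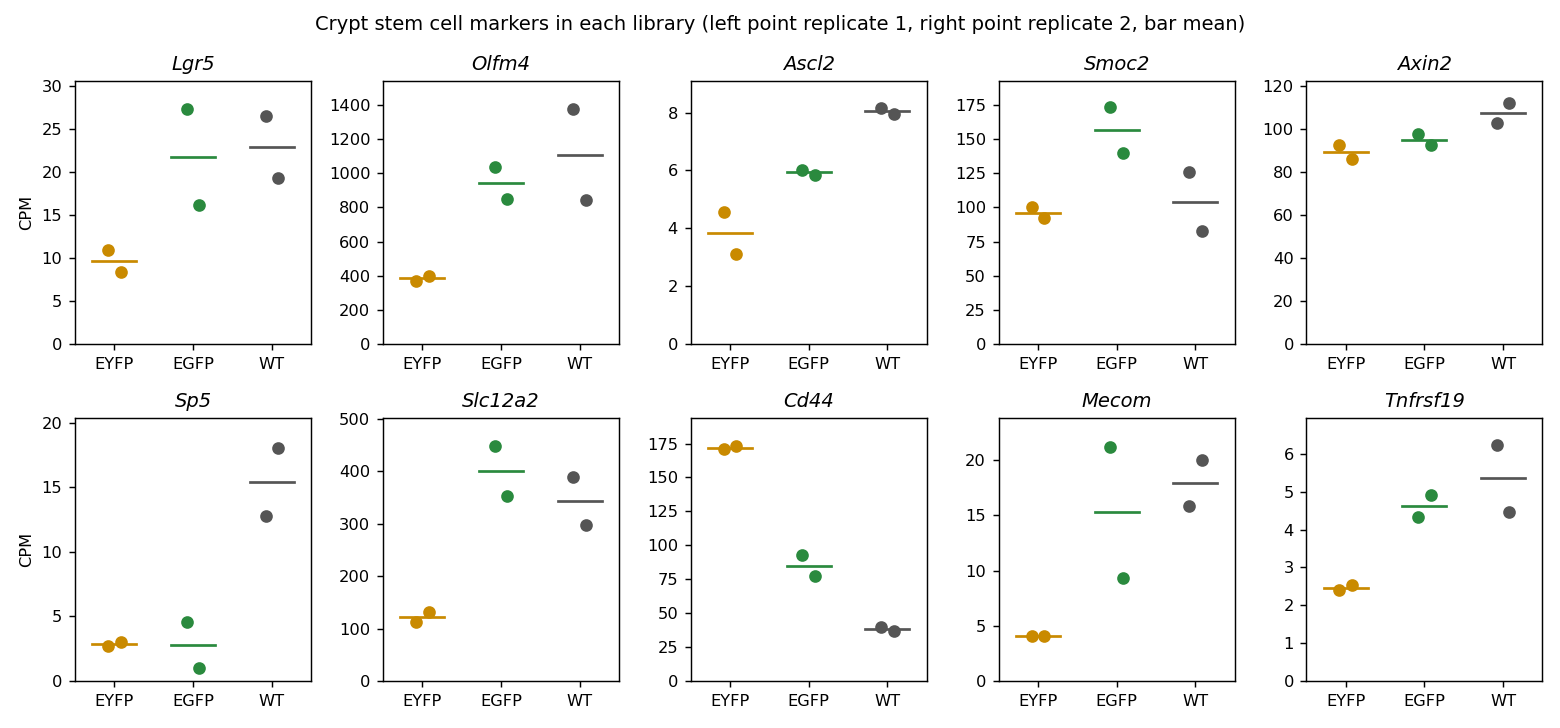
CPM of the 10 crypt stem cell markers (vertical axes, linear from 0, each panel with its own scale) in EYFP, EGFP and WT libraries; points are libraries and bars are means of 2. Both EYFP libraries lie below every other library for Lgr5, Olfm4, Slc12a2, Mecom, Ascl2 and Tnfrsf19, and above every other library for Cd44. Over all genes 36.2% were called in EYFP over EGFP cells and 60.6% in EYFP over WT. The share of all genes separated in this way was not counted.

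Of the 10 markers, 1 rose and 5 fell in EYFP cells relative to EGFP cells, with 4 not past the test. Over all genes tested 36.2% were called in this comparison, 16.8% as higher and 19.4% as lower. The median log2 fold change of the markers was -0.81, beside 0.01 for all genes. Relative to WT, 1 marker rose and 7 fell in EYFP cells, where 60.6% of all genes were called, 27.1% as higher and 33.5% as lower. That median was -1.18, beside -0.12 for all genes. In EGFP cells relative to WT, 1 marker rose and 1 fell, where 41.5% of all genes were called, 19.6% as higher and 21.9% as lower, with a median of -0.19 beside 0.00 for all genes. The count of markers called, 6 in EYFP over EGFP cells, was 2 with EYFP replicate 1 left out, and 3 with EYFP replicate 2 or EGFP replicate 1 left out. In EYFP over WT it was 5 without EYFP replicate 2, against 8, and in EGFP over WT it was 1 without WT replicate 2, against 2. The 3 comparisons share libraries, so they are not independent of each other. In bulk libraries, fewer cells of a type and less RNA per cell cannot be told apart.

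**Figure D2:**
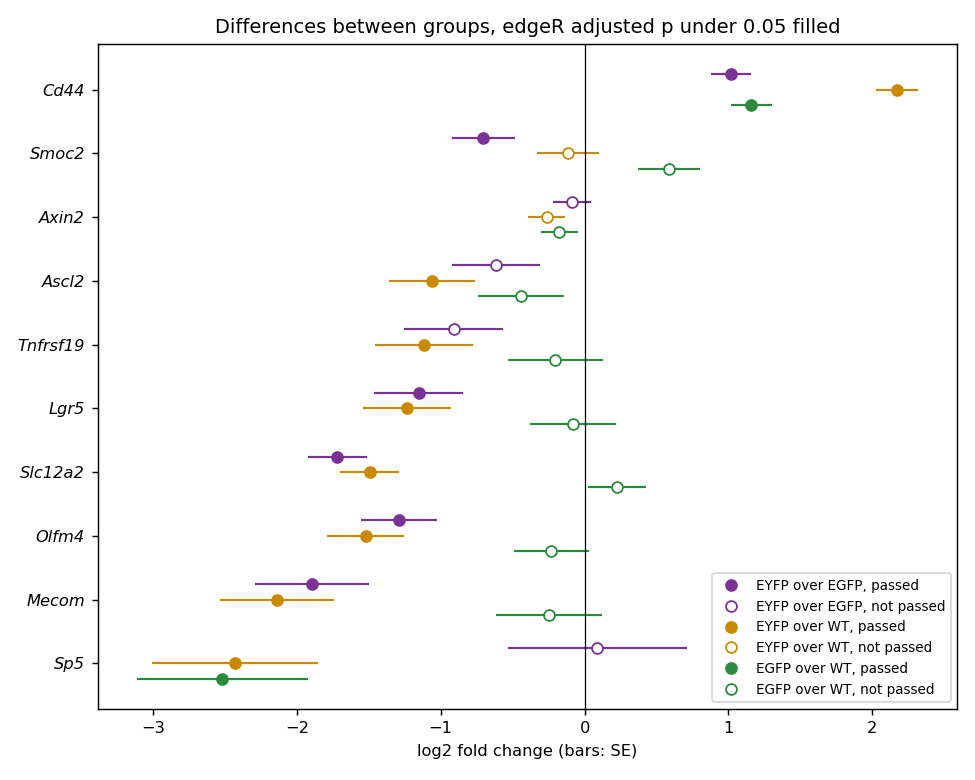
Log2 fold change with SE (horizontal axis) of each marker for EYFP over EGFP, EYFP over WT and EGFP over WT; filled points passed the edgeR test at an adjusted p under 0.05. Lgr5, Slc12a2, Olfm4 and Mecom lie left of 0 in both EYFP comparisons, Cd44 lies right of 0 in all 3, and Sp5 lies left in both comparisons with WT.

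Among the receptors, Lgr5 binds R-spondins and is the defining marker of cycling crypt stem cells. Its gene spans chr10:115450314-115587780 (GRCm38.p6, as for all genes here). Lgr5 stood at 10.99 and 8.41 CPM in EYFP cells, 27.4 and 16.2 CPM in EGFP cells, and 26.6 and 19.4 CPM in WT. Both EYFP libraries were below the other 4, and the EGFP and WT ranges overlapped. The log2 fold change of Lgr5 was -1.15 ± 0.31 in EYFP over EGFP cells (adjusted p = 0.0229) and -1.24 ± 0.31 in EYFP over WT (adjusted p = 0.00916), a level 2.23-fold and 2.36-fold lower. In EGFP over WT it was -0.08, with a 95% interval from -0.77 to 0.61. The first call was lost when single libraries were left out: Lgr5 was at -1.36 with EYFP replicate 1 left out (adjusted p = 0.0571), at -0.98 with EYFP replicate 2 left out (0.117) and at -0.68 with EGFP replicate 1 left out (0.190). Against WT it was lost without EYFP replicate 2 (-1.06, adjusted p = 0.0584) and without WT replicate 1 (-0.996, 0.0502).

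Tnfrsf19, also known as Troy, is a receptor of the TNF family that is found on crypt stem cells. Its gene spans chr14:60963834-61046855, and it had between 30 and 75 counts per library. Tnfrsf19 stood at 2.40 and 2.52 CPM in EYFP cells, 4.34 and 4.90 CPM in EGFP cells, and 6.25 and 4.46 CPM in WT. The EYFP values lay below all others. Its log2 fold change was -0.91 ± 0.35 in EYFP over EGFP cells, which did not pass (adjusted p = 0.0744), and -1.11 ± 0.34 in EYFP over WT (adjusted p = 0.0223). The WT call was lost without EYFP replicate 1, EYFP replicate 2, EGFP replicate 1 or WT replicate 1 (adjusted p from 0.0641 to 0.107), in the DESeq2 Wald test (0.0545) and when EYFP and WT were fitted by themselves (0.0683). EGFP cells and WT overlapped, at -0.20 with a 95% interval from -0.97 to 0.57.

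The transcription factors among the markers gave 3 shapes. Ascl2, a basic helix-loop-helix factor that maintains Lgr5-expressing stem cells (chr7:142966822-142969264), stood at 4.58 and 3.11 CPM in EYFP cells, 6.03 and 5.83 CPM in EGFP cells, and 8.16 and 7.96 CPM in WT. The ranges of the 3 groups did not overlap, with EYFP lowest and WT highest. EYFP over WT passed (log2 fold change -1.06 ± 0.30, adjusted p = 0.0162; -0.82 without EYFP replicate 2, adjusted p = 0.0977). Ascl2 did not pass in EYFP over EGFP cells (-0.62, 95% interval -1.33 to 0.09) or in EGFP cells over WT (-0.44, 95% interval -1.13 to 0.24).

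Sp5, a zinc finger factor switched on directly by Wnt signals (chr2:70474923-70477726), stood at 2.68 and 3.03 CPM in EYFP cells, 4.58 and 1.01 CPM in EGFP cells, and 12.7 and 18.0 CPM in WT. All 4 sorted libraries lay below both WT libraries. Its promoter window is the one printed above with 2 TCF/LEF-type matches. Sp5 fell in EYFP cells over WT by 2.43 ± 0.58 on the log2 scale (adjusted p = 0.00916) and in EGFP cells over WT by 2.52 ± 0.59 (adjusted p = 0.0136). The counts were small, at 12 in EGFP replicate 2 and 36 to 38 in the other 3 sorted libraries. The EGFP value was -3.81 without EGFP replicate 1 and -1.75 without EGFP replicate 2, and it did not pass without WT replicate 2 (-2.24, adjusted p = 0.0683). The EYFP call over WT was lost without EYFP replicate 1 (-2.34, adjusted p = 0.0579). Between EYFP and EGFP cells the ranges overlapped, with a 95% interval of the log2 fold change from -1.39 to 1.56.

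Mecom, at chr3:29951296-30509759, encodes the zinc finger factor Evi1 together with longer forms, and reads from its 2 annotated transcripts are summed here. Mecom stood at 4.09 and 4.04 CPM in EYFP cells, 21.2 and 9.30 CPM in EGFP cells, and 15.8 and 20.0 CPM in WT. The EYFP libraries were nearly equal and the lowest, while the EGFP libraries differed from each other and spanned the WT range. Mecom fell in EYFP over EGFP cells by 1.89 ± 0.40 on the log2 scale (adjusted p = 0.0100) and in EYFP over WT by 2.14 ± 0.39 (adjusted p = 0.00248). The first was -1.14 without EGFP replicate 1, and did not pass without EYFP replicate 1 (adjusted p = 0.0586) or EYFP replicate 2 (0.0551). In EGFP over WT the 95% interval was -1.11 to 0.61.

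Axin2, a scaffold of the complex that destroys beta-catenin and a feedback target of Wnt signals in many tissues (chr11:108917828-108950783), stood at similar levels in all 6 libraries. It stood at 92.9 and 86.4 CPM in EYFP cells, 97.7 and 92.8 CPM in EGFP cells, and 103 and 112 CPM in WT. EYFP and EGFP cells overlapped, and both lay just below WT. The log2 fold change was -0.09 in EYFP over EGFP cells (95% interval -0.39 to 0.21), -0.26 in EYFP over WT (-0.56 to 0.04) and -0.18 in EGFP over WT (-0.48 to 0.12). A difference of 2-fold, or 1 on the log2 scale, lies outside all 3 intervals. Sp5 and Axin2, both targets of the same pathway, lay below WT in both sorted groups, and only Sp5 passed the test there. The difference between these genes was not itself tested.

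The secreted markers were Olfm4 and Smoc2. Olfm4, a glycoprotein that is abundant at the crypt base of the small intestine (chr14:80000302-80023141), stood at 372 and 400.0 CPM in EYFP cells, 1039.6 and 851 CPM in EGFP cells, and 1376 and 843 CPM in WT. Both EYFP values were far below every other value. Olfm4 was 2.45-fold lower in EYFP than in EGFP cells (log2 fold change -1.29 ± 0.26, adjusted p = 0.00819) and 2.87-fold lower than in WT (-1.52 ± 0.27, adjusted p = 0.00165). The first call was lost without EYFP replicate 1 (-1.24, adjusted p = 0.0608) or EGFP replicate 1 (-1.08, 0.0902), and the second passed with each of the 6 libraries left out in turn. EGFP cells and WT overlapped, at -0.23 with a 95% interval from -0.83 to 0.37.

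Smoc2, a calcium-binding matrix protein that fibroblasts can also make (chr17:14279490-14404790), had both EGFP libraries above all others. It stood at 100.4 and 92.2 CPM in EYFP cells, 174 and 140.2 CPM in EGFP cells, and 126 and 82.6 CPM in WT. EYFP values lay within the WT range, and EGFP values lay above both. Smoc2 fell by 0.70 ± 0.22 on the log2 scale in EYFP over EGFP cells (adjusted p = 0.0381), a call lost whichever of these 4 libraries was left out (adjusted p from 0.0562 to 0.285) and with DESeq2 size factors (0.0583). In EGFP over WT it was 0.59 ± 0.22 (adjusted p = 0.0623), and this passed with the replicate number as a block (0.61, adjusted p = 0.0156), in the DESeq2 Wald test (0.0380), with no filter on low counts (0.0383) and without WT replicate 1 (0.93, 0.00842). The 8 stromal and endothelial markers summed to 20.5 and 18.8 CPM in EYFP cells, 16.6 and 5.07 CPM in EGFP cells, and 1.92 and 28.04 CPM in WT. Most of the EYFP sum was the endothelial gene Pecam1, at 18.7 and 14.6 CPM in EYFP cells, 3.62 and 4.23 CPM in EGFP cells, and 1.42 and 2.29 CPM in WT; it rose in EYFP over EGFP cells (log2 fold change 2.07 ± 0.31, adjusted p = 0.00232). Of the fibroblast genes, Dcn and Lum were at 0 in all 4 sorted libraries and had at most 8 counts in WT. The collagen gene Col3a1 stood at 0.705 and 2.36 CPM in EYFP cells, 6.51 and 0 CPM in EGFP cells, and 0.167 and 12.3 CPM in WT. Col1a1, another collagen gene, stood at 0.564 and 1.01 CPM in EYFP cells, 4.22 and 0.338 CPM in EGFP cells, and 0.0833 and 8.92 CPM in WT. The library with the higher stromal sum had the higher Smoc2 level in EYFP and EGFP cells and the lower one in WT. By Col1a1 and Col3a1 alone, the library with the higher level had the higher Smoc2 level in EGFP cells only. The part of stromal cells in the Smoc2 values was not tested.

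Of the membrane proteins, Slc12a2 is the sodium, potassium and chloride cotransporter that loads crypt cells with chloride for secretion (chr18:57878512-57946821). Slc12a2 stood at 112 and 131 CPM in EYFP cells, 449 and 354 CPM in EGFP cells, and 389 and 298 CPM in WT. The EYFP libraries lay far below the rest, and EGFP and WT overlapped. It fell in EYFP over EGFP cells by 1.72 ± 0.21 on the log2 scale (3.29-fold, adjusted p = 0.000966) and in EYFP over WT by 1.49 ± 0.20 (2.82-fold, adjusted p = 0.000464). Both calls held with each of the 6 libraries left out in turn. In EGFP over WT the value was 0.22, with a 95% interval from -0.24 to 0.69.

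Cd44, the hyaluronan receptor of the cell surface (chr2:102811141-102901669), marks crypt cells and is also known on lymphocytes. It stood at 171 and 173 CPM in EYFP cells, 92.5 and 77.5 CPM in EGFP cells, and 39.5 and 36.7 CPM in WT. The 3 groups were fully separated, with EYFP highest. Cd44 rose 2.02-fold in EYFP over EGFP cells (log2 fold change 1.02 ± 0.14, adjusted p = 0.00169), 2.23-fold in EGFP over WT (1.16 ± 0.14, adjusted p = 0.000541) and 4.52-fold in EYFP over WT (2.17 ± 0.15, adjusted p = 1.61e-05). All 3 calls held with any of the 6 libraries left out. The 8 immune markers summed to 14.7 and 13.5 CPM in EYFP cells, 29.8 and 37.6 CPM in EGFP cells, and 213 and 246 CPM in WT. Ptprc, the pan-leukocyte antigen, stood at 6.13 and 1.68 CPM in EYFP cells, 1.21 and 3.13 CPM in EGFP cells, and 47.6 and 56.5 CPM in WT. In EYFP over EGFP cells 3 of the 7 immune markers tested fell, the myeloid genes Itgam and Cd14 and the integrin Itgae, while Ptprc, Cd3e, Cd3g and Cd8a did not pass. Over all genes 36.2% were called in EYFP over EGFP cells, 19.4% as lower. In both comparisons with WT, 6 of the 7 fell and 0 rose. Over all genes 33.5% fell in EYFP over WT and 21.9% in EGFP over WT. The part of immune cells in the Cd44 values was not tested. The counts sum 6 annotated Cd44 transcripts, so isoforms were not separated.

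**Figure D3:**
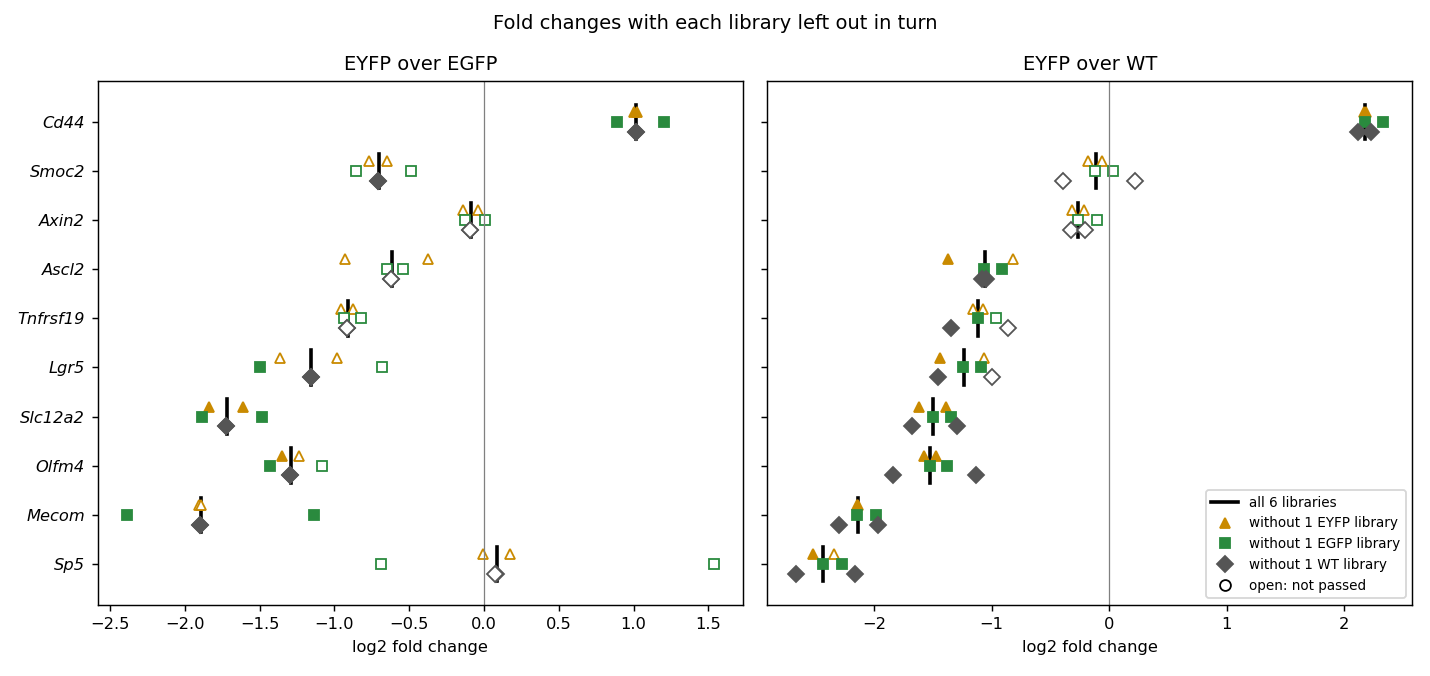
Log2 fold change of each marker (horizontal axis) for EYFP over EGFP and EYFP over WT, with all 6 libraries (black bars) and without each library in turn (symbols by the group left out, open where the adjusted p is 0.05 or more). Cd44 and Slc12a2 keep filled symbols throughout in both panels, while Smoc2 and Lgr5 turn open in EYFP over EGFP when single sorted libraries are left out.

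The markers differ widely in level once transcript length is taken into account. Per kilobase of transcript, Olfm4 led in every group, with a mean of 235 CPM per kilobase in EYFP cells, 576 in EGFP cells and 676 in WT. Tnfrsf19 had the lowest mean in every group, at 0.614 CPM per kilobase in EYFP cells, 1.15 in EGFP cells and 1.34 in WT. Lgr5 itself was among the scarce markers, at 2.06 CPM per kilobase in EYFP cells, 4.62 in EGFP cells and 4.87 in WT. Cd44 had rank 2 in EYFP cells at 61.1 CPM per kilobase, rank 4 in EGFP cells at 30.2 and rank 5 in WT at 13.5. Slc12a2 had rank 5 in EYFP cells at 18.7 CPM per kilobase, and rank 2 in both EGFP cells (61.5) and WT (52.7). Some neighbours in this order could not be separated, since their 2 libraries overlapped: Ascl2 and Lgr5 in EYFP cells; Slc12a2 and Smoc2, Lgr5 and Ascl2, Ascl2 and Mecom, Mecom and Sp5, and Sp5 and Tnfrsf19 in EGFP cells; and Ascl2 with Lgr5 and Lgr5 with Mecom in WT. Lengths are means over the GENCODE transcripts matched to 16 of the 17 annotated transcripts of the markers.

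**Figure D4:**
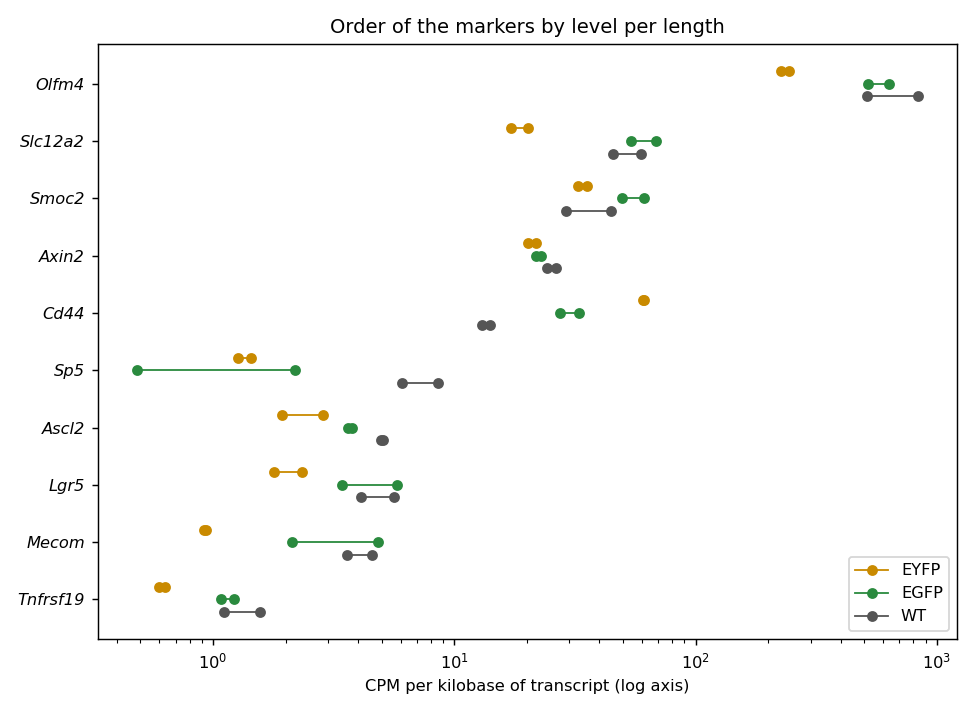
CPM per kilobase of transcript (horizontal log axis) of each marker in the EYFP, EGFP and WT libraries; each pair of joined points is the 2 libraries of a group. Markers run from Olfm4 at the top to Tnfrsf19 at the bottom by WT level, and Cd44 is the marker whose EYFP points lie to the right of its EGFP and WT points without overlap.

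Other genes of the crypt base were described by a list of 12. In EYFP over EGFP cells 4 of the 12 fell, 0 rose and 8 did not pass, with a median of -0.40. The largest falls were of Myc (log2 fold change -1.64 ± 0.23), a growth factor-responsive transcription factor, Cdca7 (-1.60 ± 0.23), a Myc-responsive nuclear protein, and the water channel Aqp4 (-0.95 ± 0.28). Rnf43, a ubiquitin ligase that removes Wnt receptors, was the other that fell, and was named after its value was seen. In EYFP over WT 3 rose and 5 fell, with a median of 0.21. Cdca7 fell (-1.66 ± 0.23), while the ephrin receptor Ephb3, which positions cells along the crypt, and the RNA-binding protein Msi1 rose by 1.65 ± 0.22 and 1.54 ± 0.20. In EGFP over WT 4 rose and 1 fell, with a median of 0.30, led by Ephb3 (1.27 ± 0.22), the surface protein Prom1 (1.12 ± 0.23) and Msi1 (0.98 ± 0.20). Ephb3, Msi1 and Prom1, like Cd44, were called higher in both sorted groups than in WT. The shares of this list called were close to those of all genes in the 3 comparisons (36.2% in EYFP over EGFP, 60.6% in EYFP over WT and 41.5% in EGFP over WT).

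A list of 5 genes is ascribed to reserve or regenerative stem cells. In EYFP over EGFP cells 3 of these rose and 0 fell, with a median of 0.998. They were Bmi1, a Polycomb protein, Hopx, a homeodomain protein, and Tert, the catalytic subunit of telomerase, of which Hopx and Tert were named after their values were seen. Bmi1 stood at 65.5 and 60.9 CPM in EYFP cells, 27.1 and 29.8 CPM in EGFP cells, and 24.9 and 22.4 CPM in WT (log2 fold change 1.15 ± 0.15 over EGFP, adjusted p = 0.00127). Relative to WT, 3 rose and 0 fell in EYFP cells, and 1 rose and 0 fell in EGFP cells. Over all genes 36.2% were called in EYFP over EGFP cells, 16.8% as higher. Those shares were 60.6% and 27.1% in EYFP over WT, and 41.5% and 19.6% in EGFP over WT. The share of this list called was close to that of all genes in EYFP over WT and smaller in EGFP over WT.

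Of 20 genes for Wnt receptors and signal transduction 18 were tested. In EYFP over EGFP cells 1 rose, 6 fell and 11 did not pass, with a median of -0.15 and a share called close to the 36.2% of all genes. Those with the largest change were Nkd1 (log2 fold change -1.27 ± 0.38), a feedback inhibitor, Tcf7l2 (-1.12 ± 0.20), the main TCF factor of the intestinal epithelium, and Lgr4 (-0.98 ± 0.16), the R-spondin receptor related to Lgr5. Lgr4 stood at 66.2 and 66.0 CPM in EYFP cells, 148 and 113 CPM in EGFP cells, and 133 and 127 CPM in WT, so that its EYFP values, too, lay below all others. In EYFP over WT 1 rose and 7 fell, with the largest changes in the Wnt receptors Fzd5 (-2.14 ± 0.20) and Fzd7 (-1.11 ± 0.20) and in Tcf7 (-1.20 ± 0.36), another TCF factor. These 8 of 18 are a smaller share than the 60.6% of all genes called there, and the 7 that fell are close to the background of 33.5%. In EGFP over WT 2 rose and 4 fell, a smaller share than the 41.5% of all genes, led by Notum, Fzd5 (-1.51 ± 0.19) and Tcf7 (-1.10 ± 0.36). Notum, a secreted Wnt inhibitor, had 3 counts in each EGFP library and 12 and 40 counts in the WT libraries (adjusted p = 0.0378), and no fold is given at such counts.

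Markers of other cell types and states differed between the groups in several ways. The cell cycle and Paneth lists were lowest in EYFP cells, the enteroendocrine list was highest there, and the enterocyte list was highest in WT. All 15 cell cycle genes fell in EYFP over EGFP cells and in EYFP over WT, with medians of -2.23 and -2.26, and in EGFP over WT 1 rose and 14 did not pass. Their summed level was 345 and 441 CPM in EYFP cells, 1716 and 1498 CPM in EGFP cells, and 1795 and 1269 CPM in WT, and Mki67 fell by 2.22 ± 0.31 on the log2 scale in EYFP over EGFP cells. All 8 Paneth markers likewise fell in both EYFP comparisons, with summed levels of 735 and 401 CPM in EYFP cells, 14564 and 18517 CPM in EGFP cells, and 13652 and 22008 CPM in WT. Over all genes 19.4% were called lower in EYFP over EGFP cells and 33.5% in EYFP over WT. In EGFP over WT 19.6% of all genes were called higher. Epcam fell by 0.85 ± 0.19 on the log2 scale in EYFP over EGFP cells and fell by 1.39 ± 0.19 in EYFP over WT, while the other 6 epithelial markers did not pass in EYFP over EGFP cells. Lyz1, a Paneth lysozyme whose reads may be shared with a near-identical copy, stood at 276 and 124 CPM in EYFP cells against 3253 and 4521 CPM in EGFP cells and 4191 and 3348 CPM in WT. The 8 enteroendocrine markers summed to 61971 and 47060.4 CPM in EYFP cells, 9265 and 14155 CPM in EGFP cells, and 536 and 605 CPM in WT, and Chga, a granule protein of hormone-secreting cells, reached 10628 and 9611 CPM in EYFP cells. The 8 enterocyte markers summed to 824 and 1571 CPM in EYFP cells, 986 and 1296 CPM in EGFP cells, and 23739 and 39823 CPM in WT, where Alpi, a brush border phosphatase, stood at 1463 and 1521 CPM. The part of these cell types and of cell division in the stem cell marker values was not tested.

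**Figure D5:**
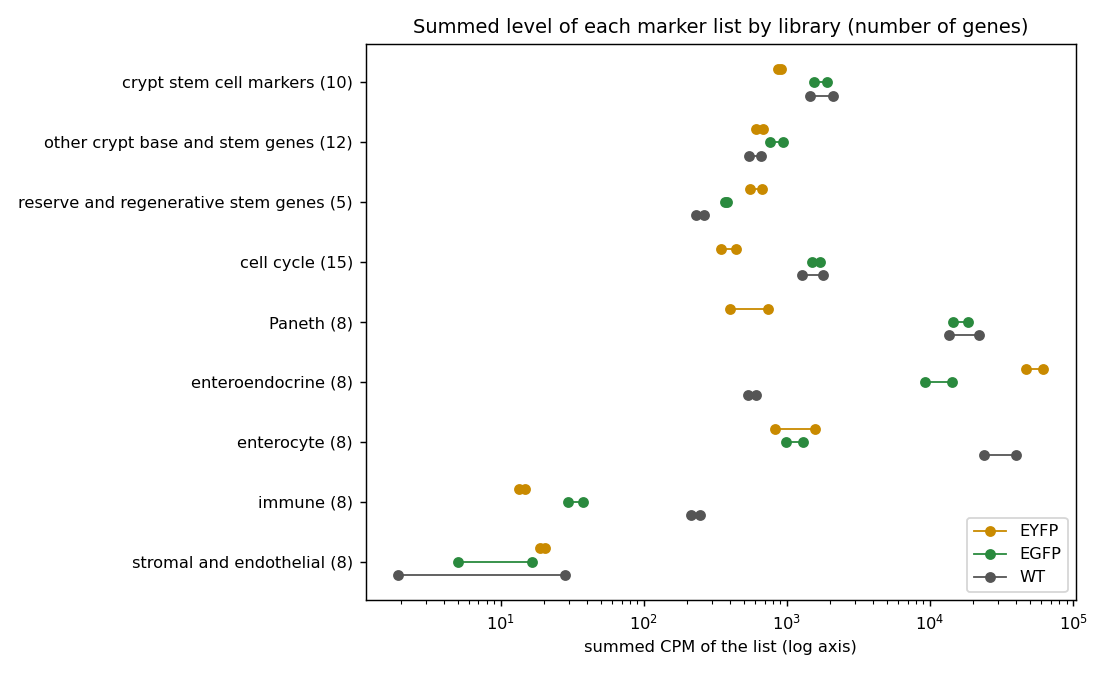
Summed CPM of each marker list (horizontal log axis) in EYFP, EGFP and WT libraries, with the number of genes in parentheses; joined points are the 2 libraries of a group. The 10 crypt stem cell markers sum to 874 and 904 CPM in EYFP cells, below EGFP cells (1916 and 1552 CPM) and WT (2103 and 1442 CPM). Olfm4 alone gives 372 and 400.0 CPM of this in EYFP cells, 1039.6 and 851 in EGFP cells, and 1376 and 843 in WT. Olfm4 and Slc12a2 make up most of every sum, so the sums do not stand for each marker, and Cd44 was highest in EYFP cells. The cell cycle and Paneth lists show the same order of EYFP below the rest.

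By summed level, EYFP cells were again lowest in the goblet and tuft lists, but EGFP cells stood above WT. Muc2, the main goblet cell mucin, stood at 7.96 and 42.1 CPM in EYFP cells, 4179 and 5144 CPM in EGFP cells, and 523 and 676 CPM in WT. Dclk1, a tuft cell kinase, stood at 0.634 and 1.43 CPM in EYFP cells, 30.5 and 16.9 CPM in EGFP cells, and 3.58 and 15.4 CPM in WT. All 8 goblet markers and all 6 tuft markers tested fell in EYFP over EGFP cells. In EYFP over WT 6 of the 8 goblet markers and 3 of the 6 tuft markers fell, and the others did not pass. In EGFP cells over WT, 7 of 8 goblet markers and 2 of 6 tuft markers rose, with 0 lower in either list. Over all genes 19.4% were called lower in EYFP over EGFP cells and 33.5% in EYFP over WT. In EGFP over WT 19.6% of all genes were called higher and 21.9% lower.

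The genes whose levels over the 6 libraries lay nearest to those of Lgr5 were, in order, Hells, Mtbp, Hat1, Exosc6 and H2afx. The measure was the root mean square difference of log2 CPM, each gene centred on its own mean, and it ran from 0.09 to 0.12 for these 5. Hells, a chromatin remodelling helicase, stood at 16.6 and 15.5 CPM in EYFP cells, 45.3 and 29.3 CPM in EGFP cells, and 43.6 and 32.2 CPM in WT. With 6 libraries, this likeness is a description only. It follows the order of the groups together with the difference between the 2 libraries of each group, where replicate 1 was the higher.

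In the authors' deposited table of comparisons, the markers with an adjusted p under 0.05 were the same 6 as here in EYFP over EGFP cells and the same 2 in EGFP cells against WT. Against WT the authors' deposited table had 6 markers for EYFP cells where 8 were called here, without Ascl2 and Tnfrsf19. For Slc12a2 the authors' deposited table gives a fold of 0.302 in EYFP over EGFP cells, and for Cd44 2.01. The sex-linked transcripts split the WT libraries. WT replicate 1 was low in Xist, as were both EYFP libraries, and WT replicate 2 was high in Xist, as were both EGFP libraries. The part of sex in the marker values was not tested. Between EYFP and EGFP cells sex cannot be told apart from the number of Neurog3 alleles.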

How the data were processed

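Per the labels' protocols, libraries came from RNeasy Micro extracts and were read from 1 end over 50 bases. The submitters' processing notes name mm10 as genome build and list DESeq2 1.26.0, RSEM 1.3.1, FastQC 0.11.8 and Bowtie2; no source used here states how each was run or whether counting used strand. The authors deposited estimated counts per gene, which were rounded to whole numbers here. The authors' deposited table of comparisons gives a linear fold, second-named group over the first, and an adjusted p-value, quoted only as the authors give them. The EYFP columns of both tables have EGFP and addon in their names; the word addon, found only in the titles of those samples, ties them together. The filterByExpr filter left 13935 genes (58.4%). TMM-scaled counts were tested with edgeR 4.0.16 (quasi-likelihood, robust) in 1 model of 3 group means on 3 residual degrees of freedom, calling genes at a Benjamini-Hochberg adjusted p under 0.05; the script was tested on simulated data. Intervals of 95% use the SE derived from the F value. The biological coefficient of variation was 19.8%. Alternatives were DESeq2 1.42.0 size factors and Wald test, TMM without the 50 most abundant genes, no filter, a minimum of 10 counts, fitting the 2 groups of a comparison by themselves, a block for the replicate number, and leaving out each library. Where a group was left with 1 library, it was assumed to vary like the others. Named genes were the 10 markers, Neurog3, up to 3 list members with the largest change past the test per comparison for the other crypt and Wnt lists, the first symbol of every other list, and the 5 genes nearest to Lgr5; Rnf43, Hopx, Tert, Xist, Pecam1, Dcn, Lum, Col3a1 and the immune genes other than Ptprc were named besides, after their values were seen. The markers and lists were chosen with earlier results of these data known. With totals of 7938358 to 20589683 counts, the scarcest markers rest on few reads per library.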

Additional observations from a re-analysis of the deposited data

How the results depend on the processing

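The markers called numbered 2 to 6 in EYFP over EGFP cells when each library was left out in turn, 1 to 3 in EGFP over WT and 5 to 8 in EYFP over WT. The counts over all genes ranged from 2392 to 5483, 4057 to 5349 and 6889 to 8191 in the same comparisons; with 1 library in a group fewer samples enter the test. In EYFP over EGFP the lowest count over all genes was without EGFP replicate 1, and leaving out EYFP replicate 1 gave 2737, EYFP replicate 2 gave 2932. Of 180 marker values with a library left out, 149 kept direction and side of the threshold, 20 lost the call, 1 gained it and 10 changed sign, none of these past the test. The sign changes were in Axin2 and Sp5 in EYFP over EGFP (log2 fold change -0.14 to 0.0031 and -0.69 to 1.54), Lgr5, Olfm4, Mecom and Tnfrsf19 in EGFP over WT (-0.41 to 0.26, -0.54 to 0.17, -0.84 to 0.24 and -0.43 to 0.054) and Smoc2 in EYFP over WT (-0.39 to 0.22). Of 210 values under the other settings, 203 kept both, 3 lost the call, 3 gained it and 1 changed sign, Smoc2 in EYFP over WT at 0.038 when those 2 groups were fitted alone; the cause was not tested. DESeq2 size factors moved the median of all genes by 0.11 on the log2 scale in EYFP over WT, and no marker changed direction with them or with TMM without the 50 most abundant genes. Fitting EYFP and WT alone moved that median by 0.16. Same-numbered libraries deviated together with correlations of 0.02, 0.01 and 0.10 across genes, so the numbers were not taken as pairs. With the replicate block 6, 3 and 8 markers were called in EYFP over EGFP, EGFP over WT and EYFP over WT, among 5444, 5969 and 8630 genes. Sp5 had as few as 12 counts in a library and Tnfrsf19 as few as 30, which limits their precision.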
